A study of Mus musculus with 32 samples.

Results

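The potassium channel genes described here are the protein-coding genes of the GENCODE M21 mouse annotation whose symbol starts with Kcn, with 1 gene left out by the rule, looked up by gene identifier in the gene tables of both brain regions. The rule found 93 genes among the 53715 genes of the tables and used no measured value. By role, 17 of them encode voltage-gated pore subunits (*Kcna*, *Kcnb*, *Kcnc* and *Kcnd*), 10 encode electrically silent modifiers (*Kcnf*, *Kcng*, *Kcns* and *Kcnv*), 5 belong to the Kv7 family (*Kcnq*) and 8 to the EAG-related family (*Kcnh*). A further 14 encode inward rectifiers (*Kcnj*), 14 encode two-pore channels (*Kcnk*), 8 encode calcium- or sodium-activated channels (*Kcnma*, *Kcnn*, *Kcnt* and *Kcnu*) and 17 encode auxiliary subunits or regulators (*Kcnab*, *Kcne*, *Kcnip*, *Kcnmb* and *Kcnrg*).

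Potassium channels let potassium leave the cell and so set the resting potential, end the action potential and limit how often a neuron fires. Voltage-gated pore subunits assemble as tetramers and open on depolarization, silent modifiers join Kv2 subunits without forming channels of their own, and Kv7 channels carry the M-current that muscarinic receptors suppress. Inward rectifiers hold the resting potential and in glia take up potassium, two-pore channels carry background leak, and calcium-activated channels form the afterhyperpolarization that follows a spike.

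The study crossed 129S1/SvImJ males heterozygous for *Kmt2a*, which encodes a writer of histone H3 lysine 4 methylation, with C57BL/6J females heterozygous for *Kdm5c*, which encodes an X-linked eraser of the same mark. Adult F1 (129xB6) male offspring were wild type (WT), *Kmt2a*-HET (2a-HET; *Kmt2a*+/-), *Kdm5c*-KO (5c-KO; *Kdm5c*-/y) or the double mutant (DM; *Kmt2a*+/-, *Kdm5c*-/y), with 4 mice of each genotype. Poly(A) RNA of the microdissected amygdala and hippocampus of each mouse was sequenced, giving 32 libraries from 16 mice and 16 libraries a region. The paper describes both mutations as constitutive, and neither was restricted to neurons. The *Kmt2a* deletion was made by crossing a floxed line to a ROSA26-Cre/ERT2 line, and heterozygotes were then backcrossed to 129S1/SvImJ. Each library is bulk tissue, in which fewer cells of a type and less RNA per cell cannot be told apart.

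Gene totals were 19215489 to 26033593 counts in amygdala and 19322259 to 27798976 in hippocampus, and the channel genes took 0.431 to 0.570% and 0.465 to 0.664% of them. In each genotype and region the library numbered 1 had the lowest of these shares, from 0.431% in WT amygdala to 0.586% in DM hippocampus. Each library held a count for 85 to 90 of the 93 genes. The summed hippocampal marker list (12 genes such as *Prox1*) was 14460 to 46020 normalised counts in the hippocampus and 7159 to 10300 in the amygdala, and the amygdala list (12 genes such as *Rspo2*) was 12760 to 19730 in amygdala and 2243 to 5728 in hippocampus. *Kdm5c* counts were 1184 to 1481 in the hippocampus of mice without a functional *Kdm5c* and 1463 to 1963 in the others, ranges that overlap. In the amygdala they were 1199 to 1400 in 5c-KO and 1179 to 1313 in DM, against 1385 to 1608 in 2a-HET and 1521 to 1965 in WT mice 2 to 4, but 1177 in WT mouse 1, below every 5c-KO and DM library. *Kmt2a* counts did not separate the genotypes (2075 to 5469 in WT amygdala and 3410 to 4480 in 2a-HET amygdala). In every genotype and region the library numbered 1 had the fewest *Kmt2a* counts. The gene totals do not separate the reads of the deleted exons. WT amygdala mouse 1 stood apart: its channel genes lay a median of 0.441 from their group mean on the log2 scale, against 0.0704 to 0.239 in the other 15 amygdala libraries. The hippocampal library of 5c-KO mouse 1 was the farthest from its group (0.383) and held 1259 normalised counts of *Adora2a*, a striatal marker, against 38.8 to 76.6 in the other 15. Where leaving out either library ended or made a call named below, the value without it is given or the loss is stated.

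Trimethylated H3 lysine 4 marks active promoters, above all those rich in CpG dinucleotides, so the promoters of the channel genes called in a genotype comparison were read first. A RefSeq promoter (250 bases before and 50 after the start) was found for 68 of the 93 genes, 93 promoters in all, with a median of 9 CpG against 7 over all 32851 promoters. At least 10 CpG were present in 47.3% of the channel promoters and in 43.5% of all. The bases before the start are shown for the called gene of each region whose call with *Kdm5c* loss held with any 1 library left out and that has a RefSeq promoter, *Kcna5* (chr6:126535556-126535805, minus strand) and *Kcnk12* (chr17:87797995-87798244, minus strand), from RefSeq on GRCm38.p6, read 5′ to 3′ with each CpG in capitals.
Kcna5: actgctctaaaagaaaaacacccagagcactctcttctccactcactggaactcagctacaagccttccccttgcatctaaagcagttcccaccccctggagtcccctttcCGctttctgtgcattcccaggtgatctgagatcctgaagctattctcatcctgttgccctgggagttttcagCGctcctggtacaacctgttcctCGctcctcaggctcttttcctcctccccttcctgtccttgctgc
Kcnk12: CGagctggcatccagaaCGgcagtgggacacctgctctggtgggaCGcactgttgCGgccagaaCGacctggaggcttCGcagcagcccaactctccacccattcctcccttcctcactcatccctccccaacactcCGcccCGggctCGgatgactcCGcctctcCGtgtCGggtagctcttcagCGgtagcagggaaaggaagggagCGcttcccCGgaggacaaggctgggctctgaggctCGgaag
The *Kcna5* stretch holds 3 CpG and the *Kcnk12* stretch 16 in 250 bases. The E-box CACGTG stood in 7.53% of channel promoters and 7.15% of all, and the E2F core TCCCGC, searched on both strands, in 23.66% and 19.98%. Neither was found in the 8 promoters of the 7 channel genes that were called in a genotype comparison and have a RefSeq promoter.

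In the WT brain, the voltage-gated pore subunits and the auxiliary subunits made up the largest shares of the summed channel level, measured as CPM (counts scaled to the gene counts of the library) per kilobase of exon. Voltage-gated pore subunits held 24.5% ± 3.77 of it in amygdala and 23.6% ± 1.42 in hippocampus (SD, n = 4 mice). Auxiliary subunits held 21.8% ± 1.92 and 30.3% ± 3.56, inward rectifiers 18.9% ± 0.912 and 14.7% ± 1.08, and two-pore channels 9.62% ± 0.220 and 8.27% ± 0.318. The EAG-related, silent, Kv7 and calcium- or sodium-activated families each held under 10% in both regions, from 3.86% to 7.90%.

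*Kcnab2*, the beta subunit that joins *Kcna* pores in axons, had the highest level per length of all 93 genes in both regions, at 74.6 ± 6.63 CPM per kilobase in amygdala and 170.5 ± 24.1 in hippocampus (SD, n = 4). In the amygdala it was followed by *Kcnj4* (55.4 ± 12.5) and *Kcnj10* (45.7 ± 17.5), whose SDs overlap, then by *Kcnip2* (37.3 ± 4.72) and *Kcnk1* (34.3 ± 2.68). Next in the amygdala came *Kcnc4* (31.3 ± 6.20) and *Kcnh3* (30.9 ± 10.5), 2 levels that do not differ beyond their spread. In the hippocampus *Kcnip2* (50.04 ± 8.06), *Kcnj4* (41.2 ± 6.34) and *Kcnk1* (38.8 ± 2.14) were among the next highest. *Kcnip2* binds A-type *Kcnd* pores, *Kcnj4* is a strong inward rectifier of neurons and *Kcnk1* forms a leak channel. Further down stood *Kcnh3* (32 ± 6.62), the glial *Kcnj10* (31.0 ± 2.51), *Kcnc4* (29.6 ± 5.99), *Kcnc1* (24.9 ± 1.92), *Kcnj9* (24.6 ± 6.91) and *Kcnj3* (22.6 ± 2.995), the last pair being subunits of G-protein-gated channels. In the amygdala *Kcnc1* (26.8 ± 7.63), *Kcnf1* (23.0 ± 5.48), *Kcna6* (22.9 ± 4.83) and *Kcnip3* (22.5 ± 4.39) closed the 12 highest. The 12 highest genes held 50.34% of the summed level in amygdala and 55.95% in hippocampus, and 9 genes were among the 12 in both. With the longest transcript as the length, 10 and 11 of the 12 genes stayed among the 12 highest.

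**Figure D1:**
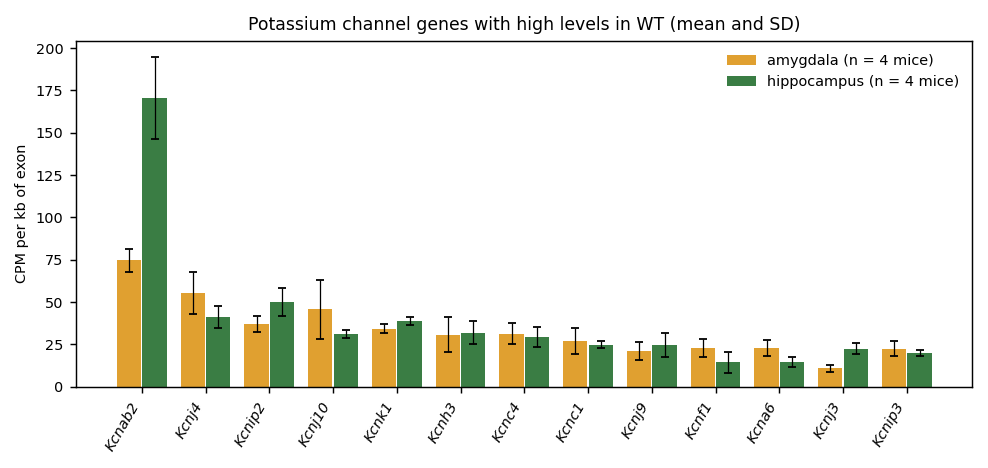
Level of channel genes from among the 12 highest in either region of WT mice, in CPM per kilobase of exon; bars are means and error bars SDs over 4 mice. *Kcnab2* stands above the others in both regions, at 74.6 in amygdala and 170.5 in hippocampus.

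A level of at least 10 was reached by 29 genes in amygdala and 32 in hippocampus, and a level of at least 1 by 67 in each region. Under 0.1 were 12 genes in amygdala and 14 in hippocampus. *Kcne1*, a partner of the cardiac *Kcnq1* channel, had no count in any of the 16 amygdala libraries, and *Kcnk16* had none in the 16 hippocampal libraries. A count of 0 allows up to 0.115 to 0.156 CPM in an amygdala library and 0.108 to 0.155 in a hippocampal one, which is 3 counts of the library and covers counting error only. *Kcna7*, *Kcna10*, *Kcnj1*, *Kcnj15*, *Kcnk7*, *Kcnk18*, *Kcnmb3*, *Kcnv2*, *Kcne3*, *Kcnn4* and *Kcnq1* were also near 0.

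The 2 regions differed in many channel genes in mice without a mutation. Of 86 channel genes tested, 21 were higher and 15 lower in WT hippocampus than in WT amygdala (DESeq2, adjusted p under 0.1 over all genes, 4 mice). Over all 20601 genes tested, 16.6% were called, 7.86% higher and 8.71% lower. The median size of the log2 difference was 0.538 over the tested channel genes and 0.253 over all genes tested. Without WT mouse 1, both libraries left out, 23 were higher and 16 lower, and without mouse 2 12 and 13. With the mouse as a block, 23 were higher and 17 lower: *Kcna3*, *Kcnb2*, *Kcnk3*, *Kcnq3* and *Kcns1* gained a call (DESeq2 adjusted p from 0.0416 to 0.0929) and *Kcnk1* lost it (0.177). In the 12 mutant mice 35 of 90 tested genes were higher and 30 lower (all genes tested: 43.6% called, 21.3% higher and 22.3% lower), and without the mice numbered 1 the counts were 36 and 28. By genotype, 51 of 86 were called in 2a-HET (all genes: 32%), 45 in 5c-KO (25.3%) and 51 in DM (30.3%). All 36 channel genes called in WT were called in the same direction in the mutants, where 96.8% of all genes called in WT were. Scaled to the ERCC spike-ins instead, the median of all genes moved by 0.777 towards the hippocampus in WT, and 2 channel genes were called higher and 2 lower (all genes: 1.45% called, 1.02% higher and 0.432% lower). In the mutants the same scaling moved it by 0.608, and 51 of 88 tested channel genes were called higher and 12 lower (all genes: 60.9% called, 56% higher and 4.89% lower). Every regional difference below is thus relative to the bulk of genes. With 1 WT mouse left out, the calls lost included those of *Kcna1* (mouse 2 or 3), *Kcna6* (2 or 3), *Kcne2* (1 or 3), *Kcnh4* (1), *Kcnh7* (2 or 4), *Kcnip2* (3), *Kcnk1* (any of the 4), *Kcnk10* (2), *Kcnk12* (2 or 4), *Kcnk13* (3), *Kcnk2* (2, 3 or 4), *Kcnma1* (2), *Kcnmb4* (2, 3 or 4) and *Kcnq5* (2), with DESeq2 adjusted p from 0.149 to 0.665. Without WT mouse 1, *Kcna3* and *Kcnj10* were called lower and *Kcnb2*, *Kcng1*, *Kcns1* and *Kcnv1* higher. In edgeR 15 channel genes were higher and 14 lower in WT hippocampus (all genes: 17.7% called, 8.42% higher and 9.28% lower), and *Kcna1*, *Kcne2*, *Kcnh7*, *Kcnk1*, *Kcnk2* and *Kcnmb4* were among those not called (edgeR adjusted p from 0.119 to 0.181). Leaving out any 1 mouse ended no call of *Kcnab2*, *Kcng2*, *Kcnj6*, *Kcna5* or *Kcnj5*. Markers of neighbouring tissue and of interneurons also moved with region. Over the 16 libraries of each region, the striatal list had a summed median of 36430 normalised counts (8854 to 66810) in amygdala and 4575 (4006 to 16260) in hippocampus, none of its 10 genes being higher in the hippocampus. The hypothalamic and pituitary list had 5717 (1962 to 8648) and 99.3 (40.0 to 883), with 0 of 8 genes higher in the hippocampus, and the thalamic list 5959 (2770 to 11040) and 2756 (2237 to 5095), with 0 of 6. The interneuron list had 22460 (17360 to 25280) and 11650 (7983 to 14030), with 2 of 6. The part of these markers in the regional differences, those of the amygdala-high *Kcna5*, *Kcnj5*, *Kcnip1*, *Kcnt1* and *Kcnh4* included, was not tested.

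**Figure D2:**
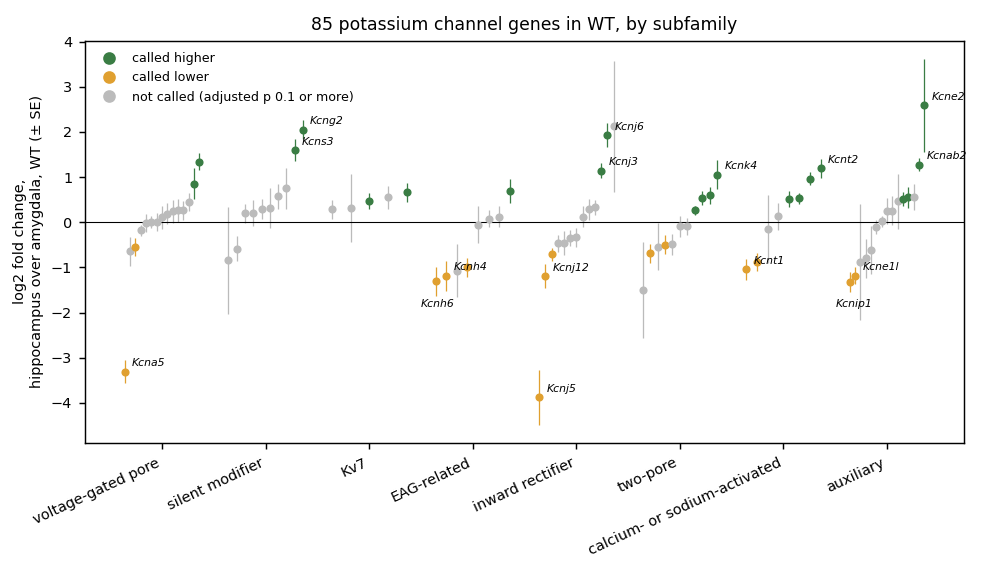
Log2 fold change between WT hippocampus and WT amygdala for each tested channel gene, grouped by family; points are DESeq2 estimates and bars their SE (4 mice), coloured by call. *Kcna5* (-3.31) and *Kcnj5* (-3.88) lie lowest and *Kcne2* (2.59) and *Kcng2* (2.05) highest among called genes drawn; *Kcnk15*, with no count in WT hippocampus, is not drawn.

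Among voltage-gated pore subunits, 2 were higher in the hippocampus, 2 lower, 11 not called and 2 not tested. *Kcna5*, a delayed rectifier best known from heart and smooth muscle, had 267.5, 454.2, 354.2 and 484.1 normalised counts in the amygdala of the 4 WT mice and 40.9, 48.8, 34.4 and 33.2 in their hippocampus. No library of one region reached the other in these mice, and the log2 difference was -3.31 (SE 0.25, DESeq2 adjusted p 2.6e-37). *Kcna1*, the axonal low-threshold channel, was 0.857 higher on the log2 scale (SE 0.342, DESeq2 adjusted p 0.0793) and *Kcna6* 0.552 lower (log2 difference -0.552, SE 0.200, adjusted p 0.0426), which spike-in scaling turned to 0.31. The lowest *Kcna1* amygdala value, 357.7 normalised counts, came from WT mouse 1, against 1025 to 1648 in the other 3. The log2 differences were -0.01 for *Kcnc1*, 0.19 for *Kcnc2*, 0.24 for *Kcnd2* and 0.11 for *Kcna2*, none called.

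The silent modifiers had 2 genes higher, none lower and 8 not called. *Kcng2* had 241.9, 192.6, 187.6 and 200.3 normalised counts in WT amygdala and 1107, 943.8, 767.3 and 580.3 in WT hippocampus (log2 difference 2.05, SE 0.210, DESeq2 adjusted p 5.61e-20). *Kcns3* had 42.7, 71.8, 58.7 and 36.2 against 150.8, 177.4, 159.9 and 144.0 (log2 difference 1.60, SE 0.242, DESeq2 adjusted p 2.07e-09). For both genes every hippocampal library exceeded every amygdala library. In the mutants 8 of the 10 silent modifiers were higher in the hippocampus and 1, *Kcnf1*, was lower.

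The EAG-related genes leaned the other way in WT, with 3 lower, 1 higher and 4 not called. *Kcnh2*, the ether-a-go-go-related channel of cardiac repolarization, had 1176, 2328, 2185 and 2043 normalised counts in amygdala and 977.6, 834.2, 983.8 and 1061 in hippocampus (log2 difference -0.999, SE 0.205, DESeq2 adjusted p 2.75e-05). Here too the lowest amygdala library was that of mouse 1. Its paralog *Kcnh6* was lower by a similar amount (log2 difference -1.31, SE 0.311, adjusted p 0.000419), and so was *Kcnh4* (-1.18, SE 0.329, adjusted p 0.00394; 0.13 under spike-in scaling), whose hippocampal library from WT mouse 4 held 335.1 normalised counts against 106.6 to 143.8 in the others. *Kcnh7*, the third gene of the same subgroup as *Kcnh2* and *Kcnh6*, was higher in the hippocampus (0.688, SE 0.269, DESeq2 adjusted p 0.0696), and *Kcnh1* did not differ beyond its error (0.08, SE 0.187). 

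Of the 5 Kv7 genes, 2 were higher in the hippocampus and 3 not called, and in the mutants 3 were called higher and none lower. *Kcnq5* was 0.67 higher on the log2 scale in WT (SE 0.211, DESeq2 adjusted p 0.0149), with 867.1, 1232, 1311 and 1905 normalised counts in amygdala and 2139, 2100, 1890 and 2283 in hippocampus, where mouse 3 lay just below the highest amygdala library. *Kcnq3*, a subunit of M-channels, missed the threshold without the block (0.55, SE 0.256, adjusted p 0.162) and passed it with the mouse as a block (adjusted p 0.0534). In the mutants *Kcnq3* was called higher (0.785, SE 0.129, DESeq2 adjusted p 1.01e-08).

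Among inward rectifiers, 2 were higher, 3 lower, 8 not called and 1 not tested, and the genes of the G-protein-gated channels split. *Kcnj3* and *Kcnj6*, whose products form the main neuronal heteromer, were higher in the hippocampus. *Kcnj6* had 138.5, 222.8, 248.4 and 169.7 normalised counts in WT amygdala and 507.5, 1131, 680.7 and 640.5 in WT hippocampus (log2 difference 1.93, SE 0.268, DESeq2 adjusted p 4.76e-11). *Kcnj3* had 1556, 1127, 1381 and 1020 against 2755, 3372, 2655 and 2431 (log2 difference 1.14, SE 0.171, DESeq2 adjusted p 1.44e-09). *Kcnj5*, the partner of *Kcnj3* in the heart atrium, went the other way with 28.5, 172.8, 139.4 and 100.2 in amygdala and 9.36, 1.99, 3.33 and 14.8 in hippocampus (log2 difference -3.88, SE 0.603, DESeq2 adjusted p 6.19e-09). *Kcnj9*, the remaining gene of this group, was not called (0.29, SE 0.232). *Kcnj12*, a classical strong inward rectifier, was lower in the hippocampus (log2 difference -1.19, SE 0.265, DESeq2 adjusted p 0.000133). *Kcnj16*, which forms pH-sensitive channels with *Kcnj10*, was lower as well (-0.71, SE 0.138, adjusted p 6.59e-06), with 599.0 to 745.7 normalised counts against 336.4 to 425.7, and flipped to 0.10 under spike-in scaling. *Kcnj10* itself was not called in WT with all libraries (-0.47, SE 0.269, adjusted p 0.315), was called lower without WT mouse 1 (-0.67, SE 0.118, DESeq2 adjusted p 2.98e-07) and was called lower in the mutants (-0.316, SE 0.0546, DESeq2 adjusted p 5.31e-08). The summed astrocyte list had a median of 53800 normalised counts in amygdala and 53010 in hippocampus, with 2 of its 8 genes higher in the hippocampus. The oligodendrocyte list had 121000 (54660 to 155700) and 100500 (75420 to 154200), with 1 of 8 higher. The part of these markers in the regional *Kcnj10* values was not tested.

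The two-pore channels split as well, with 4 higher, 3 lower, 5 not called and 2 not tested. The mechanically gated *Kcnk4* was higher in the hippocampus (1.06, SE 0.323, DESeq2 adjusted p 0.0109), with 49.2 to 168.7 normalised counts in WT amygdala and 169.4 to 284.2 in WT hippocampus. Its annotated span overlaps that of *Catsperz* on the same strand, so reads of the pair may not be fully told apart. Whether their exons overlap was not checked. *Kcnab2*, *Kcng2* and *Kcnt2*, among others, also overlap an annotated gene on the same strand. Its relative *Kcnk10* was also higher (0.54, SE 0.154, adjusted p 0.00529), while *Kcnk2*, the third gene of this mechanosensitive group, was lower (-0.49, SE 0.201, adjusted p 0.0891). *Kcnk12* was higher (0.60, SE 0.188, adjusted p 0.0142) and its closest paralog *Kcnk13*, in the brain a channel of microglia, lower (-0.69, SE 0.220, adjusted p 0.0159). The microglial list had a summed median of 7291 normalised counts (6420 to 11020) in amygdala and 7111 (5821 to 8198) in hippocampus. Of its 8 genes 1 was higher in the hippocampus, and the part of these markers in the *Kcnk13* result was not tested. Spike-in scaling reversed *Kcnk2* to 0.36 and *Kcnk13* to 0.30. *Kcnk15*, a rare acid-sensitive relative, had 6.29 to 14.8 normalised counts in WT amygdala and no count in any WT hippocampal library, too few for a fold change.

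The calcium- and sodium-activated family had the largest share of calls in WT, 6 of 8 genes. Both large sodium-activated channels differed, in opposite directions: *Kcnt1* had 3230, 3711, 3354 and 4131 normalised counts in amygdala and 1206, 1599, 1483 and 2693 in hippocampus (log2 difference -1.04, SE 0.228, DESeq2 adjusted p 9.57e-05, and 0.06 under spike-in scaling), whereas *Kcnt2* had 145.2, 169.0, 251.5 and 179.9 against 412.8, 498.3, 436.4 and 349.9 (log2 difference 1.19, SE 0.201, adjusted p 1.18e-07). The small-conductance channels split in the same way. *Kcnn2* had 537.0, 750.7, 708.4 and 646.3 normalised counts in amygdala and 1183, 1469, 1315 and 1178 in hippocampus (log2 difference 0.97, SE 0.145, DESeq2 adjusted p 1.44e-09), and *Kcnn1* was higher by 0.531 (SE 0.126, adjusted p 0.000412). *Kcnn3* was lower (-0.88, SE 0.206, adjusted p 0.000373). *Kcnma1*, the large-conductance pore, was higher by 0.509 (SE 0.176, DESeq2 adjusted p 0.0317), as was *Kcnmb4*, its neuronal beta subunit (0.55, SE 0.225, adjusted p 0.0909).

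Among auxiliary subunits 4 were higher, 2 lower, 9 not called and 2 not tested. *Kcnab2* had 10050, 8040, 10273 and 9044 normalised counts in WT amygdala and 24406, 23806, 24605 and 17669 in WT hippocampus, the lowest hippocampal library still above every amygdala library (log2 difference 1.28, SE 0.147, DESeq2 adjusted p 5.73e-16). It overlaps *Nphp4* on the opposite strand. The A-type regulators diverged, *Kcnip2* higher (0.51, SE 0.159, adjusted p 0.0129), *Kcnip1* lower (-1.32, SE 0.222, DESeq2 adjusted p 1.28e-07) and *Kcnip4* not called (0.02, SE 0.124). *Kcnip1* had 389.9, 746.9, 581.6 and 501.7 normalised counts against 171.9, 242.2, 211.0 and 263.5, and it lies antisense to *Kcnmb1*. *Kcne1l*, which modulates *Kcnq1* channels, was lower (-1.18, SE 0.182, adjusted p 4.94e-09). *Kcne2*, an apical subunit of the choroid plexus epithelium, was higher (2.59, SE 1.02, adjusted p 0.0747), with values taken up beside its choroid plexus markers below.

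**Figure D3:**
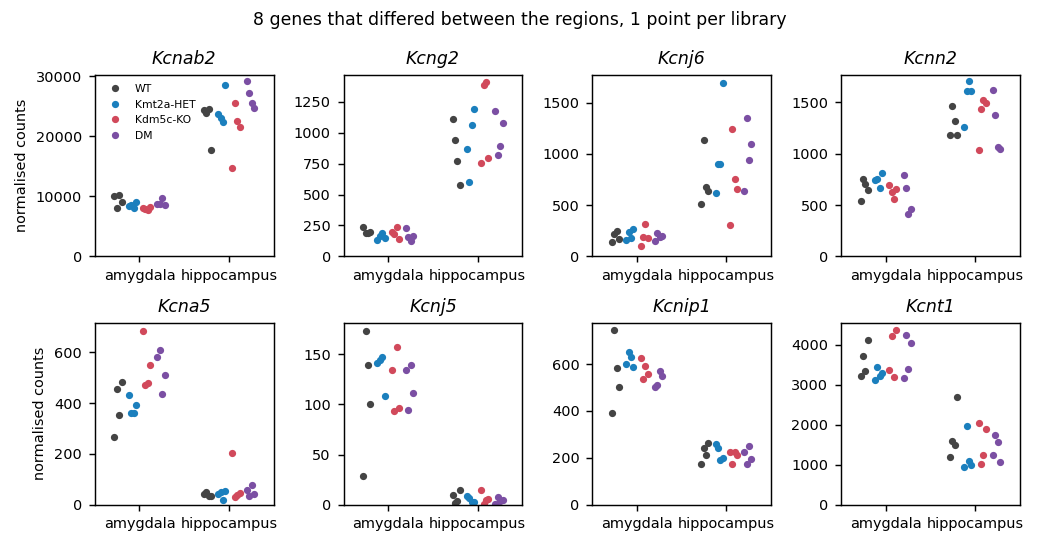
Normalised counts of 8 channel genes that differed between the regions, 1 point per library, coloured by genotype, 16 libraries a region. For *Kcnab2*, *Kcng2*, *Kcnn2*, *Kcna5*, *Kcnj5*, *Kcnip1* and *Kcnt1* the regions do not overlap, whereas the lowest hippocampal *Kcnj6* library, at 304.1, lies below the highest amygdala one, at 313.9.

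Across all 32 libraries, 9 channel genes lay higher in every hippocampal library than in any amygdala library and 6 lower, where 1.623% and 1.295% of 32048 genes did so. Among the 9 were *Kcnab2*, *Kcng2*, *Kcnj3*, *Kcnk4*, *Kcnn1*, *Kcnn2*, *Kcns3* and *Kcnt2*, and the 6 were *Kcna5*, *Kcnip1*, *Kcnj5*, *Kcnj12*, *Kcnk15* and *Kcnt1*. *Kcnab2* ran from 14770 to 29200 normalised counts in the hippocampus and from 7664 to 10270 in the amygdala. *Kcng2* ran from 580.3 to 1405 and from 126.8 to 241.9. *Kcna5* ran from 17.3 to 204.3 in the hippocampus and from 267.5 to 682.3 in the amygdala, its highest hippocampal library being 5c-KO mouse 1. The *Kcnj12* regions nearly touched, at 74.6 to 216.4 and 217.0 to 445.4.

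The transcript tables, which hold model estimates and were not tested, showed a regional shift in transcript use for *Kcnip4*. They list 380 transcripts of the channel genes, and 30 of 69 genes with enough counts had more than 1 transcript over a 10% share. *Kcnip4*-201 took 52.7 to 83.4% of *Kcnip4* in amygdala and 84.0 to 100% in hippocampus, without overlap over the 16 libraries of each region. In WT it took 69.2% ± 10.3 and 89.8% ± 4.36 (SD, n = 4). *Kcnip4* as a gene, by contrast, did not pass the regional test.

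Of 27 partner genes without a Kcn symbol, 26 could be tested in WT, and 8 were higher and 3 lower in the hippocampus (all genes tested: 16.6% called, 7.86% higher and 8.71% lower). These differences too are relative to the bulk of genes. Fits of the partners with spike-in scaling, edgeR or a mouse left out are not given here. *Abcc8*, the sulfonylurea receptor of ATP-sensitive channels (log2 difference 1.05, SE 0.103, DESeq2 adjusted p 1.35e-21), and *Lgi1*, a secreted partner of *Kcna1* channels (0.80, SE 0.132, adjusted p 5.36e-08), were higher. So were *Nedd4l*, *Dlg4* and the calmodulin genes *Calm2* and *Calm3*, by 0.33 to 0.52. The lower partners were *Hcn4* (-3.08, SE 0.286, DESeq2 adjusted p 2.12e-24), *Hcn3* (-1.04, SE 0.198, adjusted p 3.87e-06) and *Dpp10* (-1.23, SE 0.286, adjusted p 0.000314). *Hcn* genes encode the depolarizing pacemaker channels that oppose potassium currents, and *Dpp10* joins *Kcnd* channels.

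Few channel genes were called between genotypes in the fits of all 4 genotypes. The study asked whether reducing the writer and removing the eraser together offset each other, so each mutant was compared with WT, DM with each single mutant, and each mutation was also tested as a factor over 8 mice against 8. The comparisons with WT share their 4 WT libraries a region, and the factor fits use all of the libraries again. In the amygdala, 5c-KO against WT called 1 of 83 tested channel genes (all genes: 0.756%, of which 0.724% higher) and *Kdm5c* loss as a factor called 3 of 83 (all genes: 1.66%, of which 1.38% higher and 0.277% lower). In the hippocampus, 5c-KO against WT called 1 of 83 (all genes: 1.01%, of which 0.181% lower), DM against WT 1 of 83 (0.881%, of which 0.71% higher and 0.171% lower), *Kdm5c* loss 3 of 84 (2.42%, of which 1.94% higher and 0.48% lower) and *Kmt2a* heterozygosity 1 of 79 (0.0878%, of which 0.0234% higher). With 1 to 3 genes each, these shares are read only as counts. Scaled to the ERCC spike-ins, none of these calls held (DESeq2 adjusted p from 0.707 to 1). Under that scaling 0 to 5 of 92 channel genes had an unadjusted p under 0.05 in each genotype comparison (all genes with a p: 0.548% to 3.30%).

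No channel gene was called by DESeq2 or edgeR in 2a-HET against WT in either region (all genes called: 0.00329% and 0%). None was called in DM against WT in the amygdala (all genes called: 0.99%, of which 0.92% higher), in DM against 5c-KO (0.00329% and 0.0067%) or in DM against 2a-HET (0.805%, of which 0.703% higher, and 0.606%, of which 0.0777% lower). With all libraries, none was called for the interaction of the mutations (0.00329% and 0%) or for *Kmt2a* heterozygosity in the amygdala (0%). At an unadjusted DESeq2 p under 0.05, out of 92 channel genes with a p, the counts in amygdala and hippocampus were 7 and 2 for 2a-HET against WT (all genes with a p: 3.05% and 2.40%), 3 and 7 for DM against 5c-KO (2.29% and 4.53%), 17 and 5 for DM against 2a-HET (4.48% and 3.49%) and 9 and 2 for the interaction (2.82% and 1.91%). In the amygdala they were 8 for DM against WT (4.86%) and 2 for *Kmt2a* heterozygosity (2.92%). A fit of only the DM and 2a-HET libraries called 12 of 82 tested channel genes in the amygdala (all genes: 3.27%, of which 2.07% higher and 1.2% lower). *Kcna5*, *Kcne2*, *Kcnh3*, *Kcnip2*, *Kcnj2*, *Kcnj4* and *Kcnq5* were higher in DM and *Kcnc2*, *Kcnj9*, *Kcnj10*, *Kcnj12* and *Kcnk3* lower, with DESeq2 adjusted p from 8.55e-06 for *Kcnh3* to 0.0904 for *Kcnj2*. In the hippocampus such a fit called 1 of 83 lower, *Kcnc1* (adjusted p 0.0986, all genes: 0.557%, of which 0.491% higher and 0.0658% lower). Marker lists also moved between 2a-HET and DM amygdala. The striatal list had summed medians of 24190 and 49660 normalised counts, and the hippocampal list 7800 and 8535. The thalamic list had 8888 and 5370, and the hypothalamic and pituitary list 6347 and 2578. The choroid plexus list had 4419 and 9024, reaching 63380 in DM. The part of these markers in the 12 amygdala calls was not tested. The differences of the mutant effects between the regions called no channel gene either (all genes called: 0% to 0.00936%), with 2 or 3 of 93 genes at an unadjusted p under 0.05 for each mutant by DESeq2 (all genes with a p: 1.77% to 2.01%). An effect below that is called in one region is therefore not shown to differ from the other region.

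*Kcna5* was the amygdala gene with the firmest change with *Kdm5c* loss. It had 267.5, 454.2, 354.2 and 484.1 normalised counts in WT, 432.8, 359.7, 362.5 and 393.9 in 2a-HET, 682.3, 471.0, 477.9 and 548.5 in 5c-KO and 580.8, 608.7, 436.3 and 510.6 in DM. The 8 mice without *Kdm5c* had a median of 529.5 against 378.2, with 5 of the 8 above every mouse that kept the gene, and the ranges overlapped. It rose by 0.48 on the log2 scale over the factor (SE 0.126, DESeq2 adjusted p 0.0152), a call that held in all 16 fits with 1 library left out and in edgeR (adjusted p 0.0831) but not under ERCC scaling (0.29, adjusted p 1). Neither 5c-KO (0.48, adjusted p 0.392) nor DM (0.46, adjusted p 0.400) passed alone. The striatal marker list moved with the factor in the amygdala: 10 of 10 genes were higher with *Kdm5c* loss, with a summed median of 49660 (8854 to 66810) against 29260 (12270 to 66120) normalised counts. In the hippocampal library of 5c-KO mouse 1, where the list summed to 16260 against 4006 to 5440 in the other 15 libraries, *Kcna5* stood at 204.3 against 17.3 to 75.8. The part of these markers in the *Kcna5* result was not tested.

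*Kcne1l*, which lies on the X chromosome at chrX:142304752-142306294 (minus strand), rose in the amygdala of 5c-KO. Its normalised counts were 158.4, 215.3, 198.1 and 172.5 in WT and 326.3, 234.1, 286.6 and 260.4 in 5c-KO, which do not overlap, and 226.8, 227.0, 219.0 and 243.7 in 2a-HET and 315.1, 239.1, 207.6 and 255.8 in DM, which lie between and across them. The log2 change was 0.57 in 5c-KO (SE 0.151, DESeq2 adjusted p 0.029) and 0.36 over the factor (SE 0.106, adjusted p 0.0447). In DM it was 0.46 (SE 0.151, adjusted p 0.185). In the hippocampus 7 of the 8 mice without *Kdm5c* lay above every other mouse (factor 0.46, SE 0.156, DESeq2 adjusted p 0.117). The 5c-KO call was lost without 5c-KO mouse 1 or 3 and without WT mouse 1 or 4. The factor call was lost without 5c-KO mouse 1, DM mouse 1 or 4, or 2a-HET mouse 1, 2 or 3, and edgeR made neither call (adjusted p 0.141 and 0.123). The 5c-KO call was also lost in a fit of only 5c-KO and WT (adjusted p 0.180), and under ERCC scaling the factor gave 0.16. The striatal list (10 of 10 genes higher with *Kdm5c* loss, as given above) and the choroid plexus list (9 of 9 higher on average, with a summed median of 3436 normalised counts, 2977 to 63380, against 4395, 2769 to 4615) moved in the same amygdala comparison, and the thalamic list is given with *Kcnj10* below. What part these markers have in the *Kcne1l* result was not tested.

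*Kcnj12* fell by 0.39 on the log2 scale over the same factor in the amygdala (SE 0.121, DESeq2 adjusted p 0.0895). It had 244.8, 292.7, 445.4 and 412.7 normalised counts in WT, 390.3, 380.5, 402.9 and 392.1 in 2a-HET, 314.9, 217.0, 274.3 and 276.8 in 5c-KO and 317.9, 324.7, 278.7 and 254.8 in DM. The 2a-HET mice were closely grouped above all mice without *Kdm5c*, whereas WT mice 1 and 2 lay among them. Without WT mouse 1 the change was -0.45 (adjusted p 0.00174), and of the 16 fits with 1 library left out the call held only in those without WT mouse 1, WT mouse 2 or 5c-KO mouse 1. It was also lost in edgeR (adjusted p 0.216) and with the replicate block (adjusted p 0.122).

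*Kcnj10*, the inward rectifier with which astrocytes and oligodendrocytes take up potassium, was not called over the factor in the amygdala with all libraries and was called without 1 of them. Its normalised counts were 2432, 6107, 6881 and 6703 in WT and 6254 to 7168 in 2a-HET, against 3963 to 4563 in 5c-KO and 3960 to 5667 in DM. Apart from WT mouse 1, every mouse with *Kdm5c* lay above every mouse without it. With all libraries the factor gave -0.45 (SE 0.155, DESeq2 adjusted p 0.176), which is not a call. Without WT mouse 1 it gave -0.57 (SE 0.0727, adjusted p 3.64e-12), with -0.62 in 5c-KO (adjusted p 5.13e-06) and -0.45 in DM (adjusted p 0.00703). In the fit of only DM and 2a-HET, which holds no WT library, *Kcnj10* was lower in DM by a similar amount (-0.52, adjusted p 8.46e-05), a difference not called in the fit of all 4 genotypes (-0.52, adjusted p 0.547). *Kcnc1*, *Kcnc2* and *Kcnk3* were called lower over the factor in the fit without WT mouse 1 too. The 8 oligodendrocyte markers summed to a median of 93020 normalised counts (74630 to 139400) with *Kdm5c* loss and 125200 (54660 to 155700) without it, 5 of 8 being higher with loss. The astrocyte list had medians of 53880 and 52330. The thalamic list (6 genes) had a median of 5024 (3621 to 7784) with *Kdm5c* loss and 7467 (2770 to 11040) without it, none of the 6 being higher with loss. The part of these markers in the values of *Kcnj10*, *Kcnj12*, *Kcnc1*, *Kcnc2* and *Kcnk3* was not tested.

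In the hippocampus, *Kcnk12*, a silent or weakly conducting relative of *Kcnk13*, fell with *Kdm5c* loss. It had 587.0, 541.2, 414.2 and 580.3 normalised counts in WT, 440.4, 529.8, 431.7 and 477.6 in 2a-HET, 251.4, 383.4, 383.8 and 380.1 in 5c-KO and 447.2, 337.2, 458.4 and 371.7 in DM. All 4 5c-KO mice lay below all 4 WT mice, and 6 of the 8 mice without *Kdm5c* lay below every mouse that kept it. The log2 change was -0.60 in 5c-KO (SE 0.158, DESeq2 adjusted p 0.0267) and -0.41 over the factor (SE 0.111, adjusted p 0.0185), and -0.40 in DM (adjusted p 0.395). The factor call held in all 16 fits with 1 library left out and in edgeR (adjusted p 0.0900), while the 5c-KO call was lost without 5c-KO mouse 1, the library with striatal markers, and without WT mouse 1, 2 or 4, and in edgeR (adjusted p 0.164). Several marker lists moved with *Kdm5c* loss in the hippocampus. The astrocyte list had a summed median of 55920 normalised counts (47820 to 64600) with loss and 47720 (46710 to 54310) without it, with 7 of 8 genes higher. The striatal list had 4684 (4239 to 16260) and 4355 (4006 to 5273), with 10 of 10 higher, the hypothalamic and pituitary list 101.6 and 86.8, with 7 of 8 higher, and the endothelial and pericyte list 4837 and 5218, with 0 of 8 higher. All 9 choroid plexus markers were higher, as given with *Kcne2* below. The part of these markers in the *Kcnk12* and *Kcnj14* results was not tested. The bases before its start are those shown above with 16 CpG, against 3 for *Kcna5*.

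*Kcnj14*, a strong inward rectifier of motor nuclei, rose in the hippocampus with *Kdm5c* loss. It had 65.5, 75.8, 72.2 and 88.1 normalised counts in WT, 73.4, 51.1, 66.5 and 50.9 in 2a-HET, 108.9, 120.0, 106.2 and 113.1 in 5c-KO and 121.2, 83.4, 68.6 and 69.2 in DM. The 5c-KO mice stood tightly above both groups that kept *Kdm5c*, and the DM mice spanned the gap. The factor gave 0.53 (SE 0.149, DESeq2 adjusted p 0.0282), held in all 16 fits with 1 library left out and in edgeR (adjusted p 0.0988) but was lost under ERCC scaling (0.32, adjusted p 1). The marker lists given with *Kcnk12* moved in the same comparison. In 5c-KO alone the change was 0.57 (SE 0.207, adjusted p 0.274), and in the amygdala the factor gave 0.28 (SE 0.105, adjusted p 0.261).

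*Kcnc4*, a fast-inactivating subunit of high-threshold currents, was the only channel gene called in DM against WT, in the hippocampus. It had 2306, 2642, 2097 and 3260 normalised counts in WT and 1519, 1475, 2128 and 1639 in DM, with 2007, 1720, 1620 and 2438 in 5c-KO and 2297, 2498, 1730 and 1964 in 2a-HET. DM mouse 3 overlapped the WT range. It fell by 0.61 on the log2 scale (SE 0.173, DESeq2 adjusted p 0.0585), and the call was lost without any of WT mice 2 and 4 and DM mice 1, 2 and 4, and in edgeR. The single mutants changed by -0.41 (5c-KO, adjusted p 0.440) and -0.28 (2a-HET, adjusted p 0.996). The astrocyte list summed to 53850 to 64600 normalised counts in DM hippocampus and 46800 to 53650 in WT, which do not overlap, and the interneuron list had a median of 9597 (7983 to 11500) in DM and 11990 (11440 to 12890) in WT. The part of these markers in the *Kcnc4* result was not tested.

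*Kcnj10* was the only channel gene called for *Kmt2a* heterozygosity. In the hippocampus it had 3679, 4431, 3781 and 4068 normalised counts in WT and 3602, 3830, 3237 and 3611 in 5c-KO, against 4689, 5031, 4612 and 4452 in 2a-HET and 3945, 4522, 4796 and 3993 in DM. 6 of the 8 heterozygotes lay above all mice with both *Kmt2a* copies. The factor gave 0.25 (SE 0.0624, DESeq2 adjusted p 0.0855), and of the 16 fits with 1 library left out the call held only in those without 2a-HET mouse 3, 5c-KO mouse 2, DM mouse 1 or WT mouse 2. edgeR did not make the call (adjusted p 0.590), and spike-in scaling turned it to -0.17. The astrocyte list had a summed median of 54080 normalised counts in the heterozygotes and 50190 in the others, with 6 of 8 genes higher. The oligodendrocyte list had medians of 109500 and 100500 (4 of 8 higher), the endothelial and pericyte list 5308 and 5007 (8 of 8 higher) and the hippocampal list 28760 and 24230 (12 of 12 higher). The thalamic list had 2928 and 2598 (5 of 6 higher) and the microglial list 7294 and 6947 (5 of 8). Lower were the choroid plexus list (4440 and 14860, 0 of 9 higher) and the hypothalamic and pituitary list (72.3 and 144.2, 1 of 8). The striatal list had 4518 and 4596 (1 of 10 higher), the amygdala list 3072 and 3313 (2 of 12) and the interneuron list 11030 and 12080 (1 of 6). The part of these markers in the result was not tested.

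**Figure D4:**
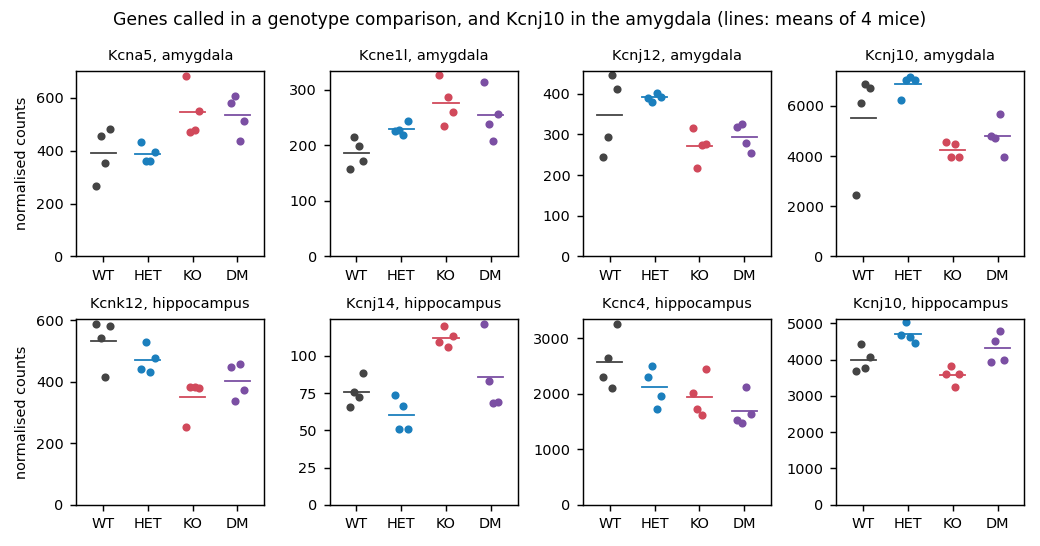
Normalised counts of the channel genes called in a genotype comparison, other than *Kcne2*, and of *Kcnj10* in the amygdala, 1 point per mouse, 4 mice a genotype; lines are means. 5c-KO and WT do not overlap for *Kcne1l*, *Kcnk12* and *Kcnj14*, and in the amygdala *Kcnj10* stands at 2432 in WT mouse 1 and at 6107 to 6881 in the other WT mice.

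*Kcne2* was called higher in the hippocampus with *Kdm5c* loss (factor 3.47, SE 0.974, DESeq2 adjusted p 0.0270), and its level followed choroid plexus markers library by library. It had 24.6, 0.997, 70.0 and 34.9 normalised counts in WT, 9.03, 1.16, 5.78 and 6.37 in 2a-HET, 624.0, 2.81, 61.3 and 131.6 in 5c-KO and 1.76, 196.4, 9.93 and 233.4 in DM. High and low libraries stood side by side within 5c-KO and within DM. *Folr1*, a choroid plexus marker, had 73.7, 11.96, 250.9 and 60.2, then 23.7, 2.32, 19.3 and 3.82, then 1254, 9.37, 115.3 and 195.9, and then 6.15, 472.3, 10.8 and 485.2 in the same mice. The 9 choroid plexus markers other than *Kcne2* were all higher on average with *Kdm5c* loss in the hippocampus, with a summed median of 27730 normalised counts (3163 to 155900) against 5563 (2620 to 35400), and *Ttr* alone reached 90930 in 5c-KO mouse 1. The *Kcne2* call was lost without that library, without DM mouse 4 and in edgeR (3.45, adjusted p 0.145). In the amygdala *Kcne2* was 210.7 and 35.6 in DM mice 1 and 3, the libraries with the most *Folr1* (609.3 and 119.2), and at most 13.7 in the other 14. The part of choroid plexus tissue in the *Kcne2* result was not tested.

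**Figure D5:**
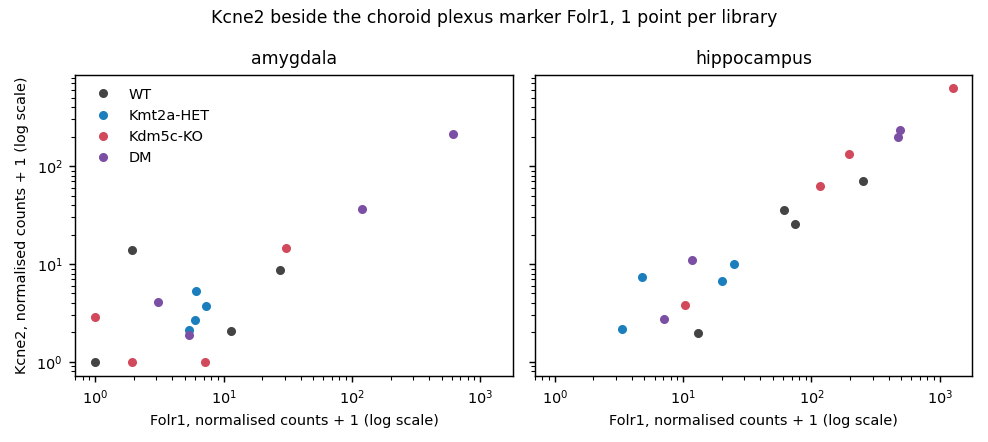
Normalised counts plus 1 of *Kcne2* (vertical, log scale) against the choroid plexus marker *Folr1* (horizontal, log scale), 1 point per library, coloured by genotype, 16 libraries in each panel. In the hippocampus the library with the most *Folr1* (1254, 5c-KO mouse 1) also has the most *Kcne2* (624.0), and the libraries with little of one have little of the other.

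Several genes with the smallest unadjusted p in a comparison did not pass. *Kcnh3*, a forebrain EAG-related channel, had log2 changes of -0.59 in the amygdala (SE 0.182, DESeq2 adjusted p 0.998) and -0.34 in the hippocampus of 2a-HET (SE 0.130, adjusted p 0.996), and -0.36 in the hippocampus of 5c-KO (SE 0.130, adjusted p 0.241). Its amygdala value in WT mouse 1 was 6014 normalised counts against 2592 to 3866 in the other WT mice and 2600 to 2717 in 2a-HET, and without that mouse the 2a-HET change was -0.32 (adjusted p 0.997). The silent modifier *Kcns1* gave -0.63 in 2a-HET amygdala (adjusted p 0.998) and *Kcnab2* -0.23 in 5c-KO amygdala (adjusted p 0.334). Without WT mouse 2, *Kcnh3* and *Kcns1* were called lower in 2a-HET (adjusted p 0.00785 and 0.0285), and *Kcnab2* (-0.30, adjusted p 0.00828), *Kcnh3* (-0.53, adjusted p 0.0581) and *Kcns1* (-0.61, adjusted p 0.0810) in 5c-KO amygdala. The amygdala interaction was called in the same fit for *Kcnh3* (0.89, DESeq2 adjusted p 0.027), *Kcns1* (1.05, adjusted p 0.0313) and *Kcnab2* (0.36, adjusted p 0.0792). *Kcnmb1* gave 1.02 in DM amygdala (adjusted p 0.273, and 1.23 with adjusted p 0.0599 without DM mouse 4), *Kcnk5* 0.57 with *Kmt2a* heterozygosity in the amygdala (adjusted p 1) and *Kcnt2* 0.35 with *Kmt2a* heterozygosity in the hippocampus (adjusted p 0.383). Calls made with 1 library left out also included *Kcnj9*, lower with *Kdm5c* loss in the amygdala without WT mouse 4 (-0.37, adjusted p 0.00801), and *Kcnip4*, lower with *Kdm5c* loss (-0.37, adjusted p 0.00349) and higher with *Kmt2a* heterozygosity (0.32, adjusted p 0.0458) in the hippocampus without 2a-HET mouse 3. Of the partner genes, *Abcc8* alone was called in a genotype comparison, lower with *Kdm5c* loss in the hippocampus (-0.44, SE 0.131, DESeq2 adjusted p 0.0447; all genes: 2.42%, of which 0.48% lower).

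The channel genes varied more between mice of 1 group than genes in general. For 73 of them with a mean of at least 50 normalised counts, the within-group SD on the log2 scale had a median of 0.303 (0.133 to 2.29), against 0.195 over 13366 genes, with no test. *Kcne2* (2.29), *Kcnj5* (0.845), *Kcng3* (0.815), *Kcng4* (0.682) and *Kcnh5* (0.668) varied most. *Kcnd1* (0.133), *Kcnn1* (0.154), *Kcnab2* (0.175) and *Kcnip3* (0.179) varied least, and of these *Kcnab2* and *Kcnn1* kept their regions apart in all 32 libraries.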

How the data were processed

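Poly(A) RNA-seq of 32 libraries (16 adult male mice, amygdala and hippocampus) was analysed from the tables the authors deposited, which hold expected counts per gene and per transcript. The submitters' processing notes name STAR 2.5.3a, featureCounts of Subread 1.5.0, DESeq2 1.14.1, deepTools 3.1.3 and mm10. The estimator behind the expected counts and the annotation release are not given in the sources used here. Of the gene values, 7.07% were not whole, and all were rounded to whole numbers for the count models. Gene identifiers were matched without version to GENCODE M21 (53620 of 53715 matched).

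Genotypes were compared with DESeq2 1.42.0 (Wald test, R 4.3.3) over the 16 libraries of a region, and each mutation as a factor over 8 mice against 8 from the same fit. Regions were compared over the 8 WT libraries, and separately over the 24 mutant libraries as the mean of 3 regional contrasts. A gene counted as called when its p, adjusted over all genes tested by Benjamini-Hochberg, was under 0.1. Fold changes are unshrunken, and normalised counts use size factors over all 32 libraries. Levels between genes are CPM per kilobase of the union of exons. ERCC rows were kept out of library sizes and tests; they made up 0.0503 to 0.511% of counts. Alternatives were edgeR 4.0.16, TMM and ERCC scaling, a filter on low counts (10 counts in 4 libraries), a threshold of 0.05, a replicate block, a term for the libraries numbered 1, fits of the 2 groups compared, and each library left out. The scripts were tested on simulated data. Tables were handled in Python 3.11.15.

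The 2 regions of a mouse share an animal, and their deviations from group means correlated with a median r of 0.149 (13 of 16 over 0.1). No pair of replicates agreed within sampling noise. Separate mice are the replicates.

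Members, marker lists and partner genes were chosen with earlier results of these data known. Named were all genotype calls, the 2 smallest p of each mutant-against-WT and factor comparison, the 12 largest regional calls in each direction seen in 4 of 4 WT mice with a mean of at least 50, the 12 highest levels in each region, the 5 widest spreads, 20 well-known channel genes and those with the fewest counts. Others, such as *Kcnk10*, were named after their values were seen, to complete a family. Some genes are not reported here by name, though the counts of genes include them. The planned description of pore sequences was not run. Counts do not state a strand setting, so antisense neighbours were treated as uncertain.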

Additional observations from a re-analysis of the deposited data

Results flagged for a closer look

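In 27 of 400 groups of 4 mice, the highest or lowest mouse of a channel gene lay farther from its nearest neighbour than Dixon's 95% critical value for its share of the group's range; chance gives about 1 in 20. WT hippocampus mouse 4 held 4 of them, namely *Kcnab2* at 17669 normalised counts, *Kcnh1* at 1919, *Kcnh4* at 335.1 and *Kcnj9* at 3515. 2a-HET hippocampus mouse 3 held 3 (*Kcnc2* 2433, *Kcnj16* 623.4 and *Kcnk1* 1350), and so did 5c-KO hippocampus mouse 1 (*Kcna5* 204.3, *Kcnc2* 1376 and *Kcnk12* 251.4). WT hippocampus mouse 2 was apart for *Kcnc2* (2235).

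Elsewhere in the hippocampus the normalised counts that stood apart were *Kcnip2* 5053 and *Kcnn3* 414.7 in DM mouse 1, *Kcnk13* 96.8 in 2a-HET mouse 4, *Kcnma1* 3764 in 2a-HET mouse 1 and *Kcnt1* 1965 in 2a-HET mouse 2. In the amygdala they were *Kcna6* 2137 and *Kcnj16* 745.7 in WT mouse 1, *Kcna6* 2734 and *Kcne2* 210.7 in DM mouse 1, and *Kcnh4* 421.1 and *Kcnj10* 6254 in 2a-HET mouse 1. Among 5c-KO amygdala libraries they were *Kcng4* 164.3 and *Kcnq3* 2025 in mouse 1, *Kcnk5* 4.71 in mouse 3, and *Kcnd2* 2235 and *Kcnk2* 1710 in mouse 4.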

How the results depend on the processing

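TMM scaling and the filter on low counts left every named gene on its side of the threshold. Counts of called channel genes that moved by over 1.5 times were as follows. With edgeR they were 0 for 5c-KO against WT in both regions, 0 for DM against WT in the hippocampus, 0 for *Kmt2a* heterozygosity in the hippocampus and 1 for *Kdm5c* loss in the amygdala. With ERCC scaling they were 0 for those 5 comparisons and for *Kdm5c* loss in the hippocampus, and 4 for the regions in WT. At a threshold of 0.05 they were 0 for DM against WT and for *Kmt2a* heterozygosity in the hippocampus. Deviations of mice with the same replicate number in 2 genotypes had a median r of 0.0569 (-0.2997 to 0.4121, 21 of 48 pairs over 0.1). The libraries numbered 1 shared the lowest share of channel counts in their groups. The replicate block gave 1 call for 2a-HET against WT in the amygdala. In the hippocampus it gave 2 for 5c-KO against WT, 2 for DM against 5c-KO and 1 for DM against 2a-HET. A term for the libraries numbered 1 gave 7 for *Kdm5c* loss in the hippocampus. Fits of only the 2 groups compared gave 0 for 5c-KO against WT in the amygdala, and for DM against 2a-HET 12 in the amygdala (all genes 3.27%) and 1 in the hippocampus (0.557%). With 1 library left out, counts ran from 1 to 7 (*Kdm5c* loss, amygdala), 2 to 7 (*Kdm5c* loss, hippocampus), 0 to 4 (*Kmt2a* heterozygosity, hippocampus), 0 to 4 and 0 to 1 (5c-KO against WT, amygdala and hippocampus), 0 to 1 (DM against WT in each region, DM against 5c-KO in the hippocampus), 0 to 2 (2a-HET against WT, amygdala) and 0 to 3 (interaction, amygdala), and with 1 mouse number left out from 25 to 39 (regions, WT) and 56 to 64 (regions, mutants). Named genes whose regional log2 difference in WT turned sign included, under ERCC scaling, *Kcna6* 0.31, *Kcnh4* 0.13, *Kcnj10* 0.28, *Kcnj16* 0.10, *Kcnk13* 0.30, *Kcnk2* 0.36, *Kcnt1* 0.06 and *Kcnc1* 0.72. Some named genes that were not called between the regions, such as *Kcnip3*, *Kcnj4* and *Kcnf1*, were not followed in this way. *Kcnc1* also became 0.03 with the mouse as a block, 0.09 without mouse 2 and 0.08 without mouse 3 (-0.19 without mouse 1), *Kcna2* -0.03 without mouse 2 and *Kcnip4* -0.08 without mouse 1. For *Kmt2a* heterozygosity in the hippocampus ERCC scaling gave *Kcnj10* -0.17 and *Kcnt2* -0.06. Apart from the shift that ERCC scaling adds to all genes and the fewer samples of the smaller fits, the cause was not tested. Depth limits the genes near 0 counts, for which no fold change is given.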
